A study of Caenorhabditis elegans with 8 samples.

Results

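Hot cleavage positions are the bases of the C. elegans genome at which the same 5′ end was counted repeatedly in libraries of different fragment size. The libraries hold oocyte DNA cut by the cells' own nuclease. Whether each hot position is a site of repeated cutting was not tested. Hot positions were chosen by their counts in 2 single-end libraries. A position and strand was kept where at least 6 sequence tags began there in the 40-90 nt library and at least 6 in the 90-140 nt library. The rule kept 3197 hot positions, 1579 on the plus and 1618 on the minus strand, of 5746568 positions and strands at which both libraries had at least 1 tag.

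The libraries came from fer-1(b232) oocytes, taken from mutant worms grown at the temperature at which their sperm fail to fertilize. Such oocytes are ovulated and activated without fertilization and copy their DNA repeatedly without dividing, so that all libraries describe polyploid, unfertilized cells of 1 mutant strain. Endo-cleaved DNA, cut inside the oocytes with no nuclease added, gave 7 libraries: single-end libraries of 40-90, 90-140 and 140-240 nt and paired-end libraries of 20-80, 50-130, 80-230 and 130-430 bp, with sizes as the sample labels give them. The remaining library holds nucleosome core DNA of about 150 bp, released from chromatin of the same mutant by micrococcal nuclease (MNase). A single library represents each condition. Values therefore carry no error between oocyte preparations, and each 95% interval covers counting error alone. The authors blunted the DNA ends and amplified the ligated product by PCR, and amplified copies are not independent molecules.

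A nuclease reaches DNA that is wrapped on a protein surface mainly where the sugar-phosphate backbone faces outward, which happens once in each turn of the double helix. Where DNA of all cells lies on the surface with the same face outward, cuts of different cells fall on the same bases and on bases further whole turns away. An enzyme that cuts both strands across the minor groove leaves 5′ ends on opposite strands that are offset by a few bases. MNase digests the linker DNA between nucleosomes and trims toward the core particle.

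The libraries held between 7892011 5′ ends in the MNase library and 32660817 in the 140-240 nt library. The rule libraries held 29938690 and 28451497. Among 100258 windows of 1 kb, 9 had more than 5 times the median number of tags in a rule library, and these 9 windows held 445 of the hot positions (13.9%, exact 95% interval 12.7 to 15.2%). The main values without these windows are given in the closing section. All coordinates count bases from 1 on the chromosomes as the deposited lists give them, and the name of the genome build is not given in the sources used here, so no gene or sequence was assigned to a position.

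The counts that chose the members fell off steeply above the threshold. The lower of the 2 counts was exactly 6 at 1220 hot positions, 7 at 498, 8 or 9 at 443, between 10 and 19 at 627, between 20 and 49 at 309 and at least 50 at 100. The median was 9 tags in the 40-90 nt library, with a highest count of 634, and 8 tags in the 90-140 nt library, with a highest count of 979. Most positions with at least 6 tags in 1 library had fewer in the other. The overlap is what the rule selected, so it is given as a description only. The 40-90 nt library had at least 6 tags at 53323 positions, of which 6.0% were hot by the rule, and the 90-140 nt library had at least 6 at 40662, of which 7.86% were. These numbers stand against 39184046 positions and strands with a tag in either library.

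The distance from a hot position to the next one on the same strand varied widely. Of 3185 such spacings, 733 were of a single base and 1011 (31.7%) were of 1 to 3 nt, whereas the median of all was 4975 nt. Spacings near 1 turn of the helix were few, with 52 (1.63%) of 9 to 12 nt. The 23 spacings of exactly 10 nt outnumbered the 17 of 9 nt and the 9 of 11 nt, but there were also 26 of 7 nt and 22 of 6 nt. Hot positions were therefore described in 2 classes, cut at 25 nt, the length of a mapped tag. The cut was chosen after the spacings had been seen. There were 1742 lone hot positions, with no other hot position of the same strand within 25 nt, and 1455 clustered ones. With the clustered members set aside, the 1730 spacings between lone members had a median of 70851 nt. The clustered members made up 247 stretches, of which 86 were pairs and 45 had at least 10 members. Of the stretches, 229 (92.7%) spanned no more than 25 nt, the longest covered 58 nt, and the fullest had 29 members.

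**Figure D1:**
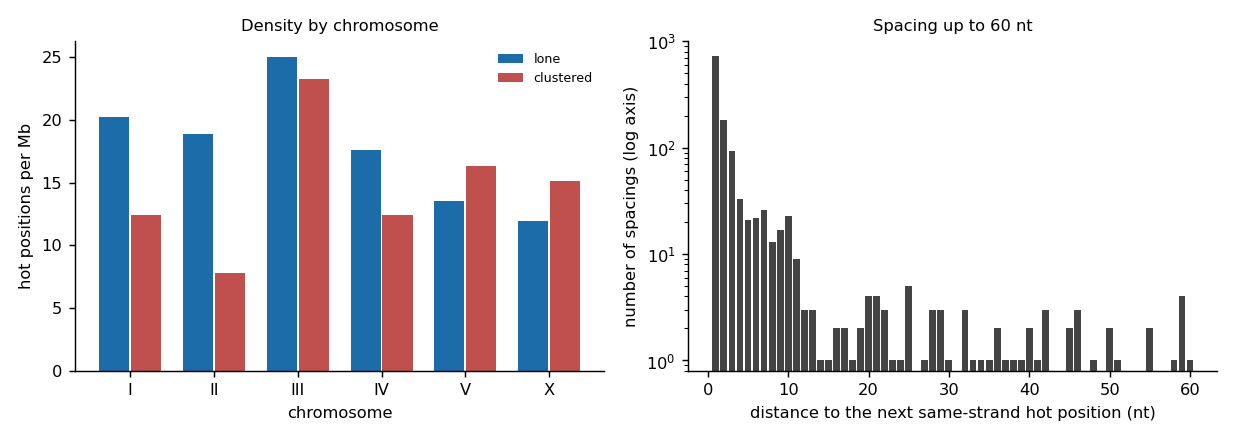
The left plot gives hot positions per Mb on each of the 6 nuclear chromosomes, with lone members in blue and clustered members in red. Chromosome III has the highest bar of both classes, with 25.0 lone and 23.3 clustered positions per Mb. The right plot counts, on a log axis, the distances of up to 60 nt to the next hot position of the same strand, and the bar at 1 nt holds 733 of them.

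Both classes were found on every chromosome, but in different proportions. Lone positions were densest on chromosome III, at 25.0 per Mb (95% interval 22.5 to 27.8), and sparsest on X, at 12.0 per Mb (10.4 to 13.7). The intervals of these chromosomes do not overlap. Chromosomes I, II and IV followed III with 20.3, 18.9 and 17.6 lone positions per Mb, and V had 13.5. Tag depth did not follow the same order, with 589.5 rule-library tags per kb on III and 612.3 on X. For every 1000000 rule-library tags there were 42.5 lone positions on III and 19.5 on X. With each autosome divided into 3 equal lengths, the middle lengths had 22.03 lone positions per Mb, against 16.2 in the first and 17.4 in the last, while rule-library tags were also denser in the middle, at 671.4 per kb against 525.6 and 531.0. The X chromosome had between 11.3 and 12.4 per Mb in its 3 parts.

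Lone positions were spread over many windows and clustered positions over few, a contrast that the class rule in part sets. The 1742 lone members lay in 1601 different windows of 1 kb, and 19 of them (1.09%) lay in the 9 windows of highest tag number. The 1455 clustered members lay in only 116 windows of 1 kb, of which the highest windows held 426 members (29.3%). In windows of 10 kb, 1441 of 10028 held any hot position, and the 10 fullest held 692 members (21.6%). The fullest window of each chromosome was V:5280001-5290000 with 123 hot positions, III:930001-940000 with 75, IV:11070001-11080000 with 66, X:14900001-14910000 with 55, I:930001-940000 with 51 and II:4640001-4650000 with 27. These windows held between 0 and 4 lone members each. Windows with lone members had close to the usual depth, with a median over members of 1.19 times the median window, whereas for clustered members the median was 2.80 times.

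The 6 libraries that the rule did not use show whether 5′ ends were found at the same bases again. Of all hot positions, 76.4% had at least 1 5′ end in the 20-80 bp paired-end library, against 21.2% of the 5746568 positions with a tag in both rule libraries. The share was 77.5% against 27.5% in the 50-130 bp library, 86.1% against 42.3% in the 80-230 bp library and 75.4% against 33.7% in the 130-430 bp library. In the 140-240 nt single-end library it was 74.2% against 20.0%, and 46.2% of hot positions had at least 6 tags there, against 1.51%. MNase tags began at 29.4% of hot positions, against 3.50%. Of the 3197 members, 1543 (48.3%) had an end in all 4 paired-end libraries and 63 in none of these. In none of the 5 endo-cleaved libraries held out from the rule did 7 members have an end. The shares over all positions were not computed for these 3 counts. An end in at least 1 paired-end library was found at 98.0% of hot positions and at 68.9% of positions of lower count 1.

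Lone and clustered members differed in the MNase library. MNase tags began at 142 of 1742 lone positions (8.15%, exact 95% interval 6.91 to 9.54%) and at 797 of 1455 clustered ones (54.8%, 52.2 to 57.4%). Clustered positions lie close together in stretches and are not independent, so their intervals here are too narrow. At least 6 MNase tags were found at 5 lone and at 234 clustered positions, and the highest counts were 13 and 178. The share of all positions with at least 6 MNase tags was not computed. In the endo-cleaved 80-230 bp library the order was the other way, with an end at 91.8% of lone positions (90.4 to 93.0%) and 79.3% of clustered positions (77.1 to 81.4%). In the 140-240 nt library 55.1% of lone and 97.1% of clustered positions had a tag. The smallest paired-end library, of 20-80 bp, did not separate them, with 76.2% of lone and 76.7% of clustered positions cut.

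At lone positions the cuts of the held-out endo-cleaved libraries were concentrated on a single base. The 4 paired-end libraries together had a median of 10 ends at a lone position, with quartiles at 6.25 and 14 and a highest sum of 64. Their mean was 11.03 ends at the position and 0.531 per base at distances beyond 100 and up to 500 nt, a ratio of 20.8 (95% interval 20.5 to 21.1). By library the ratio was 23.7 for DNA of 20-80 bp, 25.8 for 50-130 bp, 24.2 for 80-230 bp and 12.7 for 130-430 bp, so that the library of longest fragments stood lowest. It was 15.1 in the 140-240 nt single-end library. The rule chose ends in the single-end libraries of shorter DNA, and its part in the order of these ratios was not tested. The MNase library had a mean of 0.121 tags at lone positions and 0.0383 per base further away, a ratio of 3.17 (2.755 to 3.63). With each distinct fragment counted once the ratio of the paired-end libraries at lone positions was 18.3 (18.1 to 18.6).

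The neighboring bases carried far fewer cuts than the hot base itself. The class rule favors this, since it admits no other hot position within 25 nt. In the summed paired-end libraries the mean at lone positions was 11.03 ends, against 1.202 ends on the base 1 nt to the 3′ side and 1.48 on the base 1 nt to the 5′ side. Ends then rose again at whole turns of the helix. At 10 nt the mean was 1.73 on the 3′ side and 2.03 on the 5′ side, at 20 nt 1.15 and 1.30, and at 30 nt 0.863 and 0.988. Divided by the mean over 1 to 100 nt on both sides, the level was 3.33 at 10 nt (95% interval 3.25 to 3.41), 2.18 at 20 nt and 1.64 at 30 nt. Midway between these distances it was 0.488 at 5 nt, 0.604 at 15 nt and 0.572 at 25 nt. The crests were at 10, 21 and 31 nt on both sides, and at 21 and 31 nt the level was 2.30 and 1.85.

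**Figure D2:**
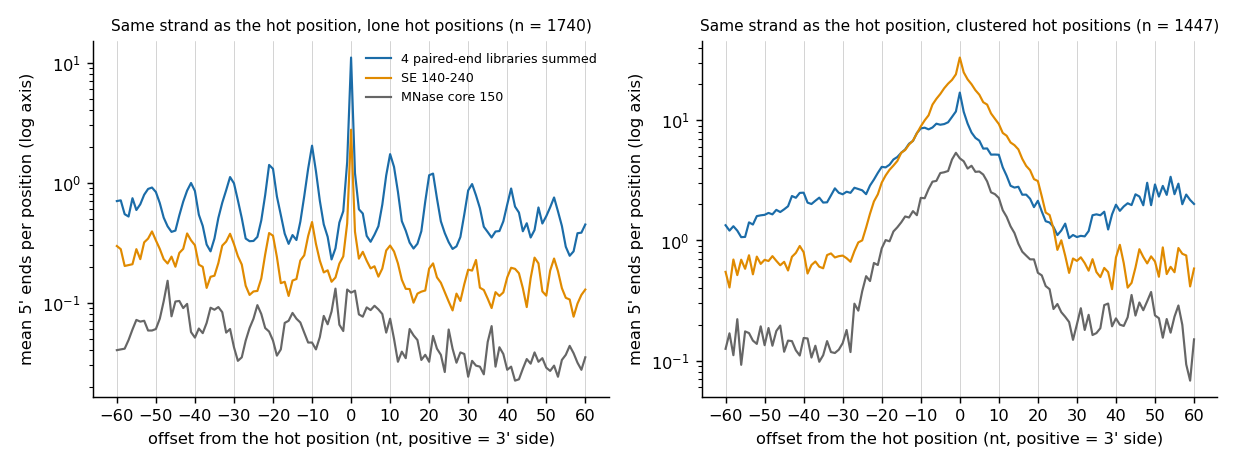
Mean number of 5′ ends per position on the strand of the hot position (log axis) by offset in nt, for lone members on the left and clustered members on the right, in the summed paired-end libraries, the 140-240 nt library and the MNase library. Lone members show a sharp centre and crests at 10, 21 and 31 nt on both sides in the summed paired-end libraries, the third of these lying at 32 nt on the 3′ side in the 140-240 nt library. Clustered members show a broad mound about the centre without crests at those distances, and their paired-end ends rise again further out, to 3.39 at 54 nt. The contrast within 25 nt is in part set by the rule that made the classes.

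The first crest lay at 10 nt in all 7 libraries of endo-cleaved DNA, on both sides of the lone positions. The level at 10 nt ran from 1.90 in the 140-240 nt library and 2.19 in the 130-430 bp library to 4.26 in the 50-130 bp library among the held-out libraries, and the libraries of longer DNA stood lowest. The part of the rule, which chose ends in the single-end libraries of shorter DNA, in this order was not tested. The rise at 10 nt was shared by most members. A summed paired-end end fell exactly 10 nt away, on either side, at 83.4% of 1740 lone positions (exact 95% interval 81.6 to 85.1%). At 5 nt this was so for 30.4%, at 15 nt for 35.8%, at 20 nt for 73.1% and at 30 nt for 65.5%. More ends lay at 10 nt than at 5 nt around 1301 lone positions, and fewer around 160. Members too near a chromosome end for the profile, 2 of 1742, were left out of these counts.

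The crests continued beyond 100 nt and faded. A sinusoid fitted to the summed paired-end ends around lone positions had an amplitude of 37.9% of the mean in a first window of 26 to 100 nt. In the next windows of 75 nt it was 19.7%, then 11.4% and then 4.58%. Its period in the first window was 10.2 nt. In the 140-240 nt library the amplitudes were 26.5, 13.4, 8.07 and 4.84% in the same windows. Clustered positions had amplitudes of 2.42, 6.91, 3.53 and 5.68% in the same windows of the summed paired-end libraries, with no such order.

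The side on which the neighboring cuts fell depended on the size of the DNA in a library. In the libraries of short DNA more ends lay 10 nt to the 3′ side of a lone position, within the DNA that a fragment starting there would cover. The 3′ share was 57.5% (exact 95% interval 54.5 to 60.4%) in the 20-80 bp library and 53.8% (51.3 to 56.3%) in the 50-130 bp library. In the libraries of longer DNA more ends lay to the 5′ side, with 3′ shares of 40.3% (38.4 to 42.3%) in the 80-230 bp, 38.2% (35.7 to 40.8%) in the 130-430 bp and 38.9% (36.3 to 41.6%) in the 140-240 nt library. At 20 nt the shares were 63.3% and 55.3% in the 2 short libraries and 43.3, 34.5 and 34.8% in the same 3 longer ones. Beyond 100 nt and up to 500 nt the 3′ share was from 50.2 to 51.2% in these 5 libraries.

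MNase tags on the 5′ side crested between the endogenous cuts. At lone positions the crests of MNase tags lay at 15, 24 and 34 nt, whereas the summed paired-end and 140-240 nt libraries had theirs at 10, 21 and 31 nt. Relative to the mean over 26 to 100 nt on that side, the MNase level was 1.48 at 15 nt (95% interval 1.245 to 1.74), 1.71 at 24 nt (1.46 to 2.00) and 1.652 at 34 nt (1.41 to 1.93). It fell to 0.733 at 9 nt, 0.651 at 19 nt (0.500 to 0.832) and 0.589 at 29 nt (0.446 to 0.763). These levels rest on between 57 and 166 tags each. With each position counted once they were 1.41, 1.62 and 1.68 at the crests and 0.750, 0.765 and 0.706 in the troughs. On the 3′ side no such regular order was seen. MNase crests lay there at 10, 25 and 36 nt, and with each position counted once the level at 36 nt was 0.804 in place of 1.87.

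**Figure D3:**
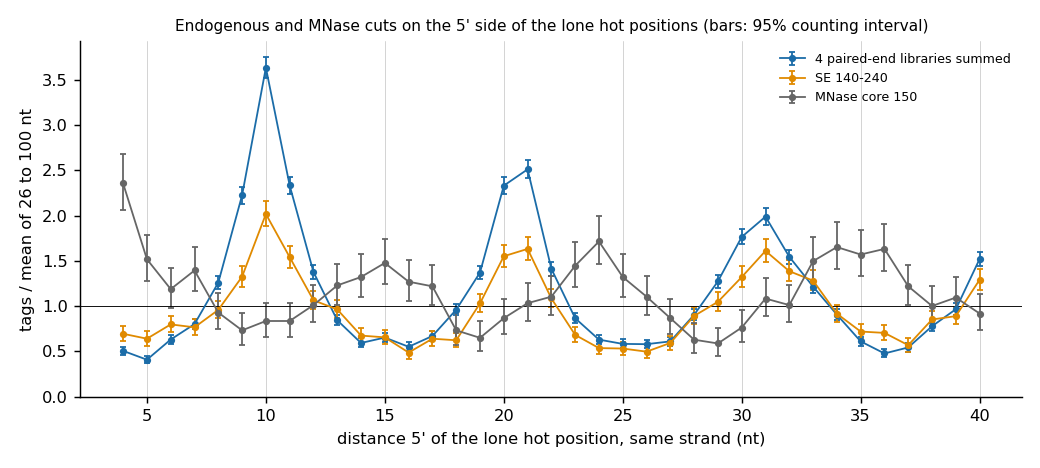
Tags on the 5′ side of lone hot positions, same strand, at distances of 4 to 40 nt, relative to the mean over 26 to 100 nt on that side, with bars for the 95% counting interval. The summed paired-end and 140-240 nt libraries crest at 10, 21 and 31 nt, and the MNase library crests at 15, 24 and 34 nt.

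On a wider scale MNase tags were unevenly placed around lone positions. In means over 21 nt, MNase tags of the same strand averaged 0.0820 per position about the hot base itself. They had local maxima at -43 nt (0.0807), -213 nt (0.0731) and 131 nt (0.0579) and local minima at -135 nt (0.0243), 54 nt (0.0307) and 227 nt (0.0290). MNase tags of the opposite strand had a local maximum at 111 nt (0.0723) and a local minimum at 195 nt (0.0257). The 140-240 nt endo-cleaved library had its own maxima close by, at -50 and -213 nt on the same strand and at 117 nt on the opposite strand. These are averages over 1740 positions with few tags each, and no single position was placed by them.

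On the opposite strand, ends faced the lone positions at short gaps. A gap is the number of bases between a hot 5′ end and an opposite-strand 5′ end on its outer side, so that 2 ends left by a staggered cut with a removed 3′ overhang face each other across the length of the overhang. Among gaps of 0 to 8 nt, that of 4 nt was the commonest in all 7 libraries of endo-cleaved DNA, with 1758 ends in the summed paired-end libraries, 2.18 times the median over gaps of up to 40 nt (95% interval 2.08 to 2.29). A gap of 3 nt had 1295 ends there, 1.61 times the median. In the 140-240 nt library a gap of 4 nt had 2.55 times the median. Further crests lay at 14, 24 and 34 nt in the summed paired-end libraries. Over all gaps of 0 to 40 nt, 24 nt and not 4 nt was the commonest there, with 2.41 times the median. That gap was also the commonest in the 140-240 nt library, with 2.80 times. The MNase library had 0.968 times its median at a gap of 4 nt, on 60 tags. Around all hot positions, lone and clustered together, a gap of 4 nt had 0.775 times the median in the summed paired-end libraries. In the 140-240 nt library it had 1.30 times. The authors inferred the length of the overhang from fragment sizes on gels. The length they give is shorter than the commonest short gap. Whether the gap of 4 nt is the length of an overhang was not tested here. The ends facing lone positions were seldom hot themselves. Of 1740 lone positions, 13 had a hot partner at a gap of 0 to 40 nt, of which 1 was at 4 nt.

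**Figure D4:**
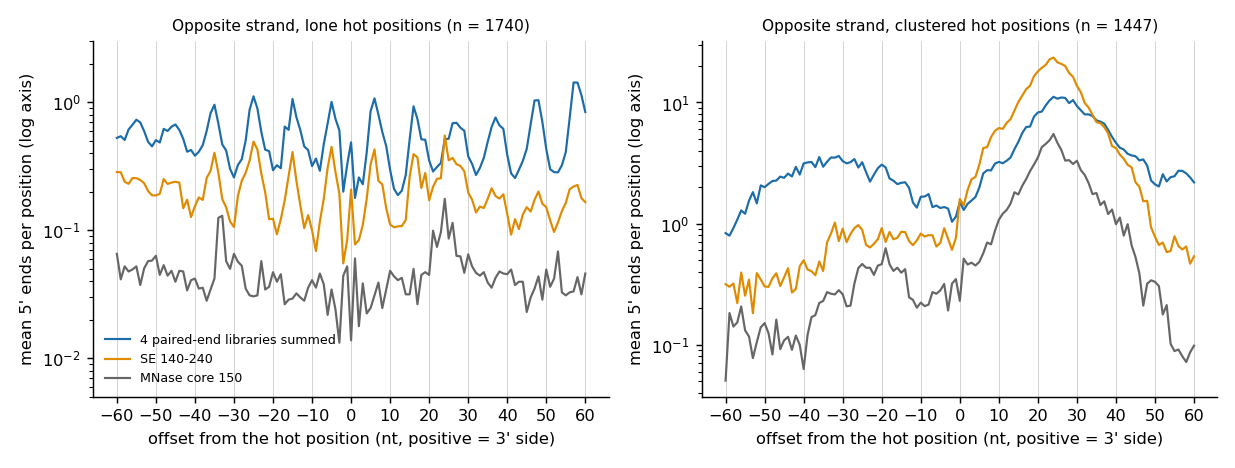
Mean number of opposite-strand 5′ ends per position (log axis) by offset in nt, for lone members on the left and clustered members on the right. A gap of 4 nt lies at an offset of -5. Endo-cleaved libraries crest there around lone positions, and all 3 lines around clustered positions peak at 24 nt, where a 25-nt tag of the opposite strand covers the same bases.

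At an offset of 24 nt on the 3′ side, an opposite-strand tag covers exactly the same 25 bases as a tag of the hot position. Around lone positions the single-end 140-240 nt library had 2.98 times as many ends at that offset as per base beyond 100 nt (95% interval 2.795 to 3.175), and the MNase library 4.555 times (4.06 to 5.09). The summed paired-end libraries had 0.976 times (0.913 to 1.04). By library this was 1.185 (1.01 to 1.38) for 20-80 bp, 0.965 for 50-130 bp, 0.959 for 80-230 bp and 0.903 for 130-430 bp, the last 3 with intervals that include 1. The libraries mapped from single 25-nt tags thus stood well above those mapped from both ends of a fragment, of which the 20-80 bp library alone had an interval above 1. Whether the mapping of single tags has a part in it was not tested.

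In the paired-end libraries the rest of the series differed from the hot positions in degree. Positions whose lower count was 1, 2, 3, 4 or 5 had 3.44, 6.04, 8.90, 11.8 and 14.6 times as many summed paired-end ends as the bases beyond 100 nt, and lone hot positions 20.8 times. The classes below 6 were not restricted to lone positions. Those of lower count 5 with no other position of lower count 5 or more within 25 nt had 15.05 times. The paired-end level at 10 nt was 1.54, 1.90, 2.24, 2.54 and 2.87 in the same classes and 3.33 at lone hot positions. Intervals did not overlap between neighbors in this order. Over all hot positions, clustered ones included, the level was 2.90 (2.86 to 2.93). That interval overlaps the one at a lower count of 5 (2.82 to 2.915), so the last step was seen only with clustered positions left out. The 140-240 nt library did not keep the order of the classes, with 2.35 at a lower count of 5 and 1.90 at lone hot positions. The facing gap of 4 nt had 1.43 times the median at a lower count of 1 and 2.18 times at lone hot positions, and 4 nt was the commonest short gap of the paired-end and 140-240 nt libraries in every class. The MNase ratio was 0.914, 1.03, 1.35, 2.26 and 5.565 in the same classes and 3.17 at lone hot positions, below that of the class of lower count 5, which includes clustered positions. At a lower count of 1 and at lone hot positions, the MNase level at 20 nt was 0.973 and 0.810.

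**Figure D5:**
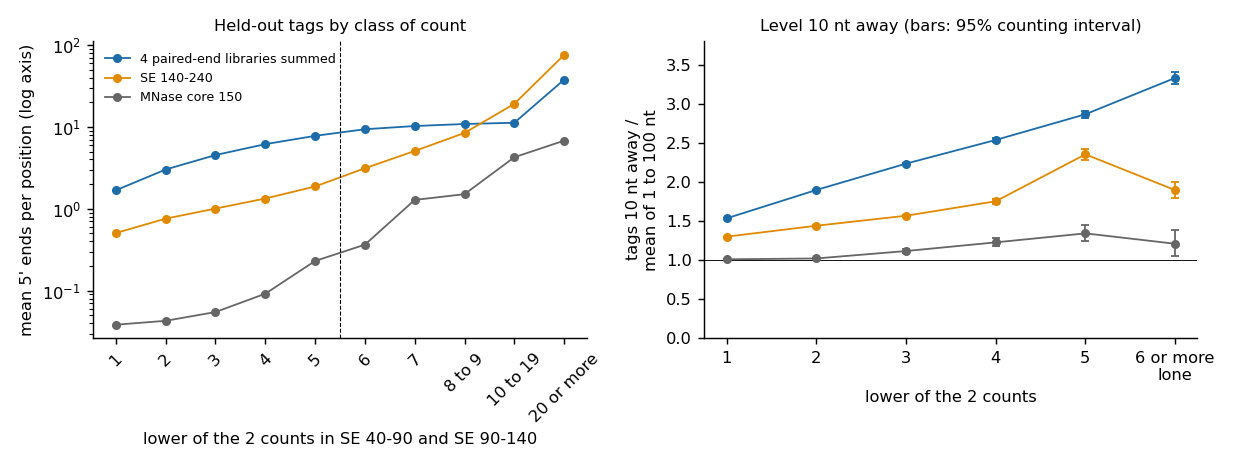
The left plot gives the mean number of 5′ ends per position (log axis) in libraries held out from the rule, by the lower of the 2 rule counts, with a dashed line at the threshold. The right plot gives the tags 10 nt away over the mean of 1 to 100 nt, with 95% counting intervals. The paired-end level climbs from 1.54 at a lower count of 1 to 3.33 at lone hot positions. Only the last class is restricted to lone positions, and over all hot positions the level was 2.90.

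Members just inside the threshold resembled the positions just outside it. The 1220 hot positions with a lower count of 6 had a mean of 9.36 and a median of 9 summed paired-end ends, and 56.1% had a tag in the 140-240 nt library. The 4018 positions with a lower count of 5 had a mean of 7.77 and a median of 7, and 46.5% had such a tag. MNase tags began at 12.8% of the positions inside and 8.16% of those outside. The share of clustered members rose with the count. It was 180 of the 1220 members with a lower count of 6, 534 of 627 with 10 to 19 and 397 of 409 with 20 or more. The highest classes of the rule are thus almost wholly clustered positions.

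Clustered positions had another profile. By definition another hot position lies within 25 nt of each, so high values at those distances are in part set by the class rule. The summed paired-end ends averaged 16.9 at the position, 11.7 at 1 nt on the 3′ side and 11.8 at 1 nt on the 5′ side, and were down to 1.11 at 25 nt on the 3′ side. Further out they did not stay low, with 3.39 ends at 54 nt and 4.12 at -135 nt. The level was 3.23 at 5 nt, 2.78 at 10 nt, 1.653 at 15 nt, 1.26 at 20 nt and 0.707 at 30 nt, with no crest at 10 or 20 nt. In the 140-240 nt library it was 6.37 at 5 nt, 3.53 at 10 nt and 0.277 at 30 nt, and in the MNase library 6.24, 3.82 and 0.289. At these distances the 140-240 nt and MNase libraries thus fell off alike, and the paired-end libraries less steeply. The mean number of tags was 33.1 in the 140-240 nt library and 4.80 in the MNase library, 90.4 and 55.0 times that of the bases beyond 100 nt.

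The strands of clustered stretches mirrored each other over the length of a tag. Of 1447 clustered positions, 649 (44.9%, exact 95% interval 42.3 to 47.5%) had a hot opposite-strand position at the offset of 24 nt, that is over the same 25 bases, and 19 of 1740 lone positions (1.09%) did. Clustered positions form 247 stretches whose members are not independent, so this interval is too narrow. The 140-240 nt library had 66.0 times its far level at that offset, the MNase library 62.2 times and the summed paired-end libraries 15.3 times. Hot partners facing each other at a gap of 3 or 4 nt were found at 55 clustered positions. The windows that hold clustered members had 2.80 times the median depth of both strands together, and the part of that depth in these values was not tested.

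Paired-end fragments tie each hot end to its partner. A hot end was found on 9090 of 6097218 fragments of 20-80 bp (0.149%), 8592 of 7963474 of 50-130 bp (0.108%), 14230 of 15509078 of 80-230 bp (0.0918%) and 8834 of 15331431 of 130-430 bp (0.0576%). Fragments with a lone hot end had nearly the same median size as all fragments, with 60, 69, 97 and 151 nt in the 4 libraries, against 59, 69, 100 and 157 nt. In the 80-230 bp library, sizes of 130 to 160 nt made up 7.94% of them, against 15.4% of all fragments. The rule chose ends in the single-end libraries of shorter DNA, which favors ends of fragments in those size ranges. Its part in the sizes given here was not tested. Some sizes 1 turn apart were more frequent among fragments with a lone hot end. In the 20-80 bp library 11.02% of fragments with a lone hot end were 69 nt long and 8.47% were 59 nt, against 6.99% and 6.22% of all fragments. The shorter sizes of 28, 38 and 48 nt were less frequent in that library, at 0.299, 1.56 and 3.86%, against 0.491, 2.295 and 4.38%. In the 80-230 bp library 9.40% of fragments with a lone hot end were 79 nt and 7.54% were 90 nt, against 5.28% and 4.62%. Both ends were lone hot positions in 6, 18, 29 and 4 fragments of the 4 libraries by increasing size, and both were hot positions of either class in 954 (10.5%), 424 (4.94%), 888 (6.24%) and 776 (8.78%) of the fragments with a hot end. Distinct fragments made up from 78.7 to 83.9% of the fragments with a lone hot end, against 88.5 to 97.4% of all fragments.

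Fragments with a clustered end were different in size. In the 130-430 bp library 41.8% of them were shorter than 70 nt, against 0.3855% of all fragments, and in the 80-230 bp library 39.4%, against 0.915%. These sizes lie under the range for which the DNA was selected. Among fragments with a lone end they were 2.95% and 2.01%. Fragments over 160 nt made up 15.2% of those with a clustered end in the 50-130 bp library, against 0.0438% of all fragments. Fragment length is the distance between the mapped places of the 2 ends.

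The 10 hot positions with the highest lower count were all clustered, and 9 of them lay in windows of highest tag number. The highest was the minus-strand position I:3171688, with 634 and 979 tags in the 40-90 and 90-140 nt libraries. It had 1454 tags in the 140-240 nt library, 173, 42, 145 and 239 ends in the paired-end libraries by increasing size, and 32 MNase tags. Of the 10, 7 lay close together on chromosome I, on the plus strand 3171660, 3171662, 3171666 and 3171669, and on the minus strand 3171686, 3171688 and 3171692. Of the other 3, minus-strand III:931429 had 498 and 396 tags in the rule libraries and 211 in the 140-240 nt library. Plus-strand IV:13549462 had 582 and 257 tags in the rule libraries, 210 in the 140-240 nt library and 1 MNase tag. Plus-strand II:3994779 had 226 and 236 tags in the rule libraries, but only 3, 7, 13 and 4 paired-end ends.

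Lone positions of high count were named after their values had been seen. Of the 10 with the highest lower count, 5 had an end in all 4 paired-end libraries and 5 did not. Minus-strand X:10361426 had the highest lower count, with 76 and 75 tags in the rule libraries. It had 30 tags in the 140-240 nt library, 9, 1, 7 and 7 paired-end ends and no MNase tag. Minus-strand II:13984899 had 46 and 51 tags in the rule libraries, 50 in the 140-240 nt library, 6, 3, 15 and 23 paired-end ends and no MNase tag. Minus-strand III:7594743 had 74 and 31 tags in the rule libraries, 34 in the 140-240 nt library and 13, 16, 21 and 9 paired-end ends, with no MNase tag. These 3 were thus cut in all 5 endo-cleaved libraries held out from the rule. Among the 5 that were not cut in all 4 paired-end libraries, plus-strand IV:13549414 had 110 and 41 tags in the rule libraries and 0, 0, 2 and 0 paired-end ends. Its surroundings of 1 to 100 nt held 3169 paired-end ends. Minus-strand IV:13549438, also among the 10, has tags over the same 25 bases as IV:13549414. Plus-strand X:10361402 had 73 and 27 tags in the rule libraries and 58 in the 140-240 nt library, but a single end in the paired-end libraries. It lies 24 nt from X:10361426 on the other strand, so that their tags cover the same 25 bases.

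The lone position with the most paired-end ends showed part of the averaged pattern. Minus-strand V:17123058 had 14 and 13 tags in the rule libraries, 41 in the 140-240 nt library, 8, 9, 20 and 27 paired-end ends, 64 in all, and no MNase tag. On the base 10 nt to its 5′ side, V:17123068, there were 34 summed paired-end ends and 16 tags of the 140-240 nt library. Between the pair, the base 1 nt to the 5′ side held 17 paired-end ends, those at 5 to 8 nt between 10 and 15, and the base 4 nt to the 5′ side none. On the 3′ side the base at 1 nt held 24 ends and that at 10 nt held 1. At 20 nt there was 1 end on each side and at 30 nt none, so that the crests of the average beyond the first, and the first on the 3′ side, were not seen here. MNase tags were found at 2, 3 and 4 per base on 5 bases within 5 nt of the hot position, and on neither of the 2 strongly cut bases.

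Runs of hot positions at helical spacing were short. There were 48 runs in which same-strand neighbors were 9 to 12 nt apart, with 100 members, and 4 of them had 3 members. In the run on the minus strand of chromosome X at 7077799, 7077809 and 7077819, the 40-90 nt library had 17, 6 and 17 tags, the 90-140 nt library 11, 13 and 20, and the 140-240 nt library 9, 0 and 6. MNase tags there were 0, 1 and 0. The run on the plus strand of chromosome V at 18087498, 18087508 and 18087518 had 6 tags at each position in the 40-90 nt library, 7, 6 and 6 in the 90-140 nt library and no MNase tag. Both runs step by exactly 10 nt. The run at II:8287767, II:8287777 and II:8287787, minus strand, had 8, 36 and 7 tags in the 140-240 nt library and 1, 10 and 0 MNase tags. In the run at II:3796905, II:3796914 and II:3796923, minus strand, the 140-240 nt library had 24, 0 and 0 tags and MNase 10, 3 and 1. The remaining run of the 5 named, on the plus strand at X:7077889 and X:7077900, had 127 and 26 tags in the 90-140 nt library and 156 and 14 in the 140-240 nt library.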

How the data were processed

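DNA of fer-1(b232) oocytes was size-selected, treated with polynucleotide kinase, blunted with T4 DNA polymerase, ligated to linkers, amplified and sequenced by the authors. Bowtie 0.12.7 is named in the submitters' processing notes. Single-end lists give a count of tags for every position and strand, and paired-end lists a count for every fragment, as deposited by the authors with no normalization. Other columns served display and were not used.

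Each 25-nt tag was placed at its 5′ end, and each fragment gave an end on both strands, on 6 nuclear chromosomes. Hot positions had at least 6 tags in both rule libraries. Profiles left out positions within 600 nt of a chromosome end. Intervals of 95% are exact Poisson or Clopper-Pearson intervals and cover counting error only. They take each position or tag as independent, which members of a stretch are not. With 1 library per condition no test was made. The steps were tested on simulated data. The members and lists were chosen with earlier results of these data known. Named positions were to be the 10 of highest lower count, the 5 longest helical runs and the fullest 10-kb window of each chromosome. Sequence around hot positions was not analysed here. Computing used NumPy 2.4.6 and SciPy 1.17.1 under Python 3.11.15, with figures drawn in Matplotlib 3.10.9.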

Additional observations from a re-analysis of the deposited data

How the results depend on the processing

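A single library stands for each condition, amplified copies are counted as tags, and the depth of the MNase library, 7892011 tags, leaves most positions without one. Hot positions numbered 7215 with a minimum of 5, 1977 with 7 and 1036 with 10, of which 5405, 738 and 166 were lone. Of 88 values recomputed under alternatives, 16 stayed within the counting interval of the value they replaced, or within 1.5 times it for a number, and those of the others that bear on the text moved as follows. The alternative restricted to lone positions, like their definition, was chosen after seeing the data.

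Over all hot positions, the ratio of tags at the position to the mean of 1 to 100 nt was 9.61 in the summed paired-end libraries, 12.95 in the 140-240 nt library and 7.62 in the MNase library. In that order it was 10.1, 8.08 and 5.36 with each fragment or position counted once, 21.8, 62.1 and 37.15 with surroundings beyond 100 nt, 14.4, 15.3 and 7.04 without high windows, 8.16, 15.1 and 8.535 with a minimum of 10, and 19.6, 13.6 and 2.44 for lone positions. The percentage with a tag was 98.0, 74.2 and 29.4, and became 70.2 in the 140-240 nt and 23.5 in the MNase library without high windows, 98.0 and 55.9 with a minimum of 10, and 55.1 and 8.15 for lone positions, where the paired-end value was 99.4.

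The level at 10 nt was 2.90, 3.39 and 3.58 over all hot positions. It was 2.96, 2.72 and 2.57 with each counted once, 3.345, 3.71 and 3.30 without high windows, 3.61, 2.07 and 1.36 at positions with no other hot position within 100 nt, and 3.33, 1.90 and 1.21 at lone positions. In the same order of settings, ending with lone positions, the summed paired-end level at 20 nt was 1.46 over all and then 1.62, 1.91, 2.32 and 2.18, and at 30 nt 0.908 and then 1.02, 1.16, 1.71 and 1.64. In the 140-240 nt library the level at 20 nt was 1.21 and then 1.38, 1.28, 1.49 and 1.365, and at 30 nt 0.359 and then 0.783, 0.2935, 1.24 and 1.22. The MNase level at 30 nt was 0.324 and then 0.543, 0.230, 0.746 and 0.671, and at 20 nt it was 1.15, and 0.940 and 0.810 in the last 2 settings. Levels at 30 nt thus lay below 1 over all hot positions and above 1 at lone ones in both groups of endo-cleaved libraries. With each fragment counted once, a hot end was found on 0.11, 0.0874, 0.0704 and 0.04798% of fragments in the 4 paired-end libraries by increasing size. The commonest gap within 40 nt was 24 nt in both groups of endo-cleaved libraries over all hot positions, with each counted once, without high windows and at lone positions. In the MNase library it was 18 nt, 0 nt with each position counted once, 0 nt without high windows and 32 nt at lone positions. Spacings of up to 25 nt made up 37.9% of all, 71.0% with a minimum of 10 and 30.11% without high windows. The densest chromosome had 1.81 times the hot positions per Mb of the sparsest, and 2.09 times the lone ones. The cause of these shifts was not tested. No paired analysis was possible because each condition has 1 library and no groups of replicates were compared.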
